A study of Mus musculus with 45 samples.

Results

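Spleens of mice bearing 4T07 mammary tumors were compared with spleens of healthy control mice by RNA sequencing, with 3 libraries in each group. The comparison covered 18697 genes, those with more than 10 counts over the 6 libraries, of 55367 gene symbols in the deposited table, after lines that repeat a symbol had been added up. The 6 libraries belong to a series of 45, in 15 groups of 3, which also holds lungs and implanted scaffolds of the same treatments, spleens of mice inoculated with 67NR or 4T1 cells, and tumors of each line. All animals were female Balb/c mice, and all of them, the healthy controls included, carried a porous polycaprolactone scaffold under the skin of the back. The 4T07 mice received 4T07 cells into a mammary fat pad (2000000 per mouse), the controls received no tumor cells, and tissues were taken on day 14 after inoculation. 4T07 is a single cell line from a spontaneous mammary tumor of a BALB/cfC3H mouse, as are 67NR, described as nonmetastatic, and 4T1, described as metastatic. 4T07 is described as invasive but nonmetastatic, with cells that reach distant tissues and do not grow there. Each group held 3 mice per the study, so the p-values measure the spread between mice.

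The mouse spleen filters blood through red pulp, whose macrophages take up old red cells and recycle their iron, and holds lymphocytes in white pulp, bordered by the macrophages and B cells of the marginal zone. Unlike the adult human spleen it keeps a capacity to make blood cells, and under inflammation or tumor growth its red pulp can fill with erythroid, megakaryocytic and granulocytic precursors. Developing neutrophils make their granule proteins in a fixed order: primary granule enzymes at the promyelocyte stage, secondary and tertiary granule proteins at the myelocyte and metamyelocyte stages, and receptors and secretory proteins in mature cells.

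The 6 libraries held from 3491888 to 5794832 counts, and levels are given as CPM, a gene's counts in each 1000000 counts of its library, where 3 counts equal 0.518 to 0.859 CPM. Markers of spleen were present in every library of both groups: Tlx1, a transcription factor required to form the spleen, was at 33.2, 33 and 39 CPM in control and 16.7, 11.9 and 16.3 CPM in 4T07 spleens, and Spic, the transcription factor of red pulp macrophages, at 124, 92.8 and 92.1 CPM in control and 50.2, 34.7 and 36.4 CPM in 4T07 spleens. Some features moved with the groups. From 19990 to 21967 genes were detected in 4T07 spleens and from 23110 to 23595 in controls, mitochondrial genes took 6.16% to 6.92% of counts against 8.40% to 10.0%, and TMM scaling factors were 0.910 to 0.992 against 1.04 to 1.08. The gene model CT010467.1, among the most abundant here, was at 31717, 5509 and 40393 CPM in 4T07 spleens, lowest in replicate 29, and at 31503, 36186 and 46391 CPM in controls. All 3 4T07 spleens also carried 6 genes that were high in 67NR tumors, described with their values further on. The libraries labelled 4T07 lung, used in the last comparison, held Tlx1 at 11.1 to 14.6 CPM, against 0.324 to 0.541 CPM in control lungs. The part of these features in the differences was not tested.

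Of the 18697 genes, 1733 (9.27%) were called higher and 1984 (10.6%) lower in 4T07 than in control spleens by edgeR's quasi-likelihood test, where a call needs both a difference of more than 2-fold and an adjusted p below 0.10. The change exceeded 8-fold for 247 of the higher and 225 of the lower genes. The 3 libraries of a group lay wholly above or below the other 3 in 7686 genes (41.1%), and in 3404 (91.6%) of those called. A single-gene permutation test of 3 libraries against 3 cannot give a p below 0.1, so calls rest on the model fitted across all genes. Over all genes the median log2 fold change was -0.05. Without TMM factors it was -0.22 and 32.6% of calls were higher genes, against 46.6% as tested. Fold changes below are after TMM scaling and so differ slightly from ratios of CPM, SE is the standard error of a log2 fold change, and adjusted p-values come from edgeR with Benjamini-Hochberg adjustment over all 18697 genes. Levels and fold changes are relative to the other RNA of a library. In whole-tissue RNA, fewer cells of a type, less RNA per cell and a smaller share beside other RNA that rose cannot be told apart.

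To describe which cells and processes moved, 568 symbols in 39 lists were followed. Of these, 535 were tested, 26 had 10 counts or fewer and 7 were not analysed here. Of those tested, 172 were called higher and 85 lower.

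**Figure D1:**
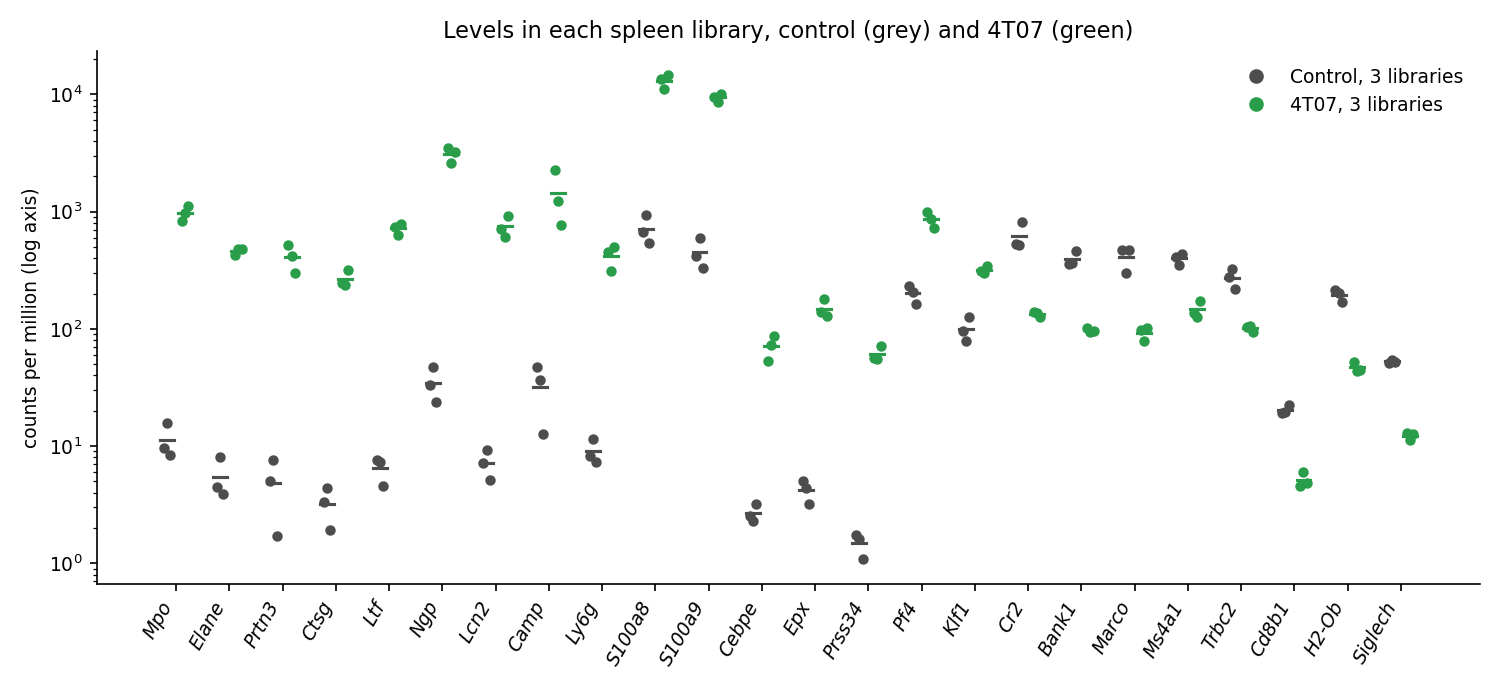
CPM (log axis) of 24 genes in each of the 3 control (grey) and 3 4T07 (green) spleen libraries, with a bar at each group's mean. Granulocyte, eosinophil, basophil, megakaryocyte and erythroid genes on the left sit higher in all 3 4T07 libraries, and macrophage, B cell, T cell and class II genes on the right sit lower in all 3.

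Apart from the 6 genes high in 67NR tumors, neutrophil primary granule genes had the highest list median. All 5 tested members rose, with a median log2 fold change of 6.59, and their summed level was 17.9 to 39.2 CPM in control and 2103 to 2388 CPM in 4T07 spleens. Mpo, myeloperoxidase, was at 9.71, 15.7 and 8.41 CPM in the control spleens and 826, 971 and 1107 CPM in the 4T07 spleens. The groups were far apart, with the lowest 4T07 library above the highest control by more than the whole control range. The log2 fold change of Mpo was 6.61 ± 0.39 (SE, adjusted p = 1.42e-07). Elane, neutrophil elastase, was at 4.47, 8.08 and 3.88 CPM in control and 428, 483 and 482 CPM in 4T07 spleens, without overlap (log2 fold change 6.59 ± 0.43, adjusted p = 1.42e-07). Prtn3, proteinase 3, was at 5.05, 7.61 and 1.72 CPM in control and 516, 420.4 and 299.6 CPM in 4T07 spleens, again without overlap (log2 fold change 6.59 ± 0.52). Ctsg, cathepsin G, was at 3.3, 4.38 and 1.94 CPM in control and 246, 234 and 318 CPM in 4T07 spleens (log2 fold change 6.54 ± 0.46). Ms4a3, a membrane protein of granulocyte and monocyte precursors, rose by 6.00 on the log2 scale.

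Because these genes rose together, the bases before their start sites are shown for the 4 granule proteases, from RefSeq on GRCm38.p6, 250 bases each, 5′ to 3′ on the gene's strand. Capitals mark GAGGAA or its reverse complement, the letters of a PU.1-type motif. PU.1, encoded by Spi1, is the transcription factor that myeloid cells need. Mpo lies at chr11:87793534-87793783 (plus strand), Elane at chr10:79886062-79886311 (plus strand), Prtn3 at chr10:79879417-79879666 (plus strand) and Ctsg at chr14:56102575-56102824 (minus strand).
Mpo: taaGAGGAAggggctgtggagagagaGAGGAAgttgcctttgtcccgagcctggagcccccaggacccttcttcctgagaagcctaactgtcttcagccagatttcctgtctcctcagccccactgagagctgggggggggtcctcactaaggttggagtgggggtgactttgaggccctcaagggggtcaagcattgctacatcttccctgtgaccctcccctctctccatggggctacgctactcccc
Elane: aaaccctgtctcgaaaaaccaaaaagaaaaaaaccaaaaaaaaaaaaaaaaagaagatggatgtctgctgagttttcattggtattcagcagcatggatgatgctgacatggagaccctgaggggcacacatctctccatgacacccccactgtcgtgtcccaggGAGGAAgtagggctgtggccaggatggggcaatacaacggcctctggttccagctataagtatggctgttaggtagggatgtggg
Prtn3: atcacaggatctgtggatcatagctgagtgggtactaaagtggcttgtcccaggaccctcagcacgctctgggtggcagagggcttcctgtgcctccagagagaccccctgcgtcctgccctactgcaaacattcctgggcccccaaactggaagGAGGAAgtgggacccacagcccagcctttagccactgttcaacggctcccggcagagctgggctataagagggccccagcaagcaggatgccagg
Ctsg: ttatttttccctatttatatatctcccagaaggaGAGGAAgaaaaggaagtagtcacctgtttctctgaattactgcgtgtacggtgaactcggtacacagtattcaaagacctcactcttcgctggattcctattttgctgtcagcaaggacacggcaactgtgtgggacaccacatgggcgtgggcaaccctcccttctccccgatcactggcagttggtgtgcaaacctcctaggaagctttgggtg
GAGGAA was found on either strand in 4 of 5 primary granule promoters, 6 of 11 secondary and tertiary granule promoters and 8 of 16 promoters of mature neutrophil genes, against 23.1% of 27025 RefSeq promoters of the same length. A C/EBP-type motif, TTNNGNAA, was in 1 of 5, 7 of 11 and 11 of 16, against 36.9%. A MYB-type motif, AACNG, which is short and common, was in 4 of 5, 10 of 11 and 13 of 16, against 74.1%. These are matches of letters, which may overlap, and not sites shown to be bound.

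Of the secondary and tertiary granule genes, 12 of 13 rose, with a median log2 fold change of 4.99 and a summed level of 7247 to 9257 CPM against 781 to 949 CPM. Ltf, lactoferrin, an iron-binding granule protein, was at 7.57, 7.38 and 4.53 CPM in control and 742, 629 and 788 CPM in 4T07 spleens. Its groups did not overlap, and its log2 fold change of 6.96 ± 0.44 (adjusted p = 1.42e-07) was the highest of the list. Lcn2, lipocalin 2, which binds bacterial siderophores, was at 7.19, 9.23 and 5.17 CPM in control and 714, 612 and 913 CPM in 4T07 spleens, and Ngp, neutrophilic granule protein, at 33.4, 47.3 and 23.7 CPM in control and 3472, 2611 and 3227 CPM in 4T07 spleens. Both were higher in every 4T07 library than in any control, by 6.87 and 6.65 on the log2 scale. Camp, the antimicrobial peptide cathelicidin, spread widely among 4T07 spleens, at 2282, 1232 and 773 CPM against 47.2, 36.5 and 12.7 CPM. Cd177, a neutrophil surface protein, rose by 6.31, Chil3, a chitinase-like protein, by 5.00, the collagenase gene Mmp8 by 3.66 and the gelatinase gene Mmp9 by 3.79, all on the log2 scale. Itgb2l, a beta-2 integrin-like subunit of neutrophils, had 3 counts in all control spleens against 96, a ratio of 32.0 with a 95% counting interval of 10.6 to 158. It passed the count filter only through the 4T07 spleens, so the direction of its call was fixed beforehand. Of the 2 NADPH oxidase subunits in the list, Cybb rose by 1.17 while Cyba, which many leukocytes express, had a log2 fold change of -0.01 ± 0.16 and was not called.

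Of 18 genes of mature neutrophils, 13 rose, with a median log2 fold change of 2.69. S100a8, a subunit of calprotectin, was at 668, 927 and 538 CPM in control and 13611, 11009.8 and 14620.2 CPM in 4T07 spleens. It was among the 20 genes with the highest level in these libraries, and its groups did not overlap (log2 fold change 4.38 ± 0.37, adjusted p = 1.32e-06). S100a9, the other subunit, rose by 4.57 on the log2 scale. Ly6g, the surface antigen used to sort mouse neutrophils, was at 8.16, 11.5 and 7.33 CPM in control and 451, 309 and 497 CPM in 4T07 spleens, higher in each 4T07 library (log2 fold change 5.71 ± 0.40). Csf3r, the receptor for granulocyte colony-stimulating factor, rose by 2.35 and the chemokine receptor Cxcr2 by 1.42. Fpr1, Il1b, Slpi, G0s2 and Clec4d were not called, and the log2 fold change of Il1b, the inflammatory cytokine interleukin-1 beta, was 0.24 ± 0.15. 

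Stefins are cysteine protease inhibitors, and the mouse genome holds near-identical copies of them that myeloid cells express, so reads may be split among the copies and single values are uncertain. Of 13 symbols listed, 7 were tested and all 7 rose, with a median of 3.22. Stfa2l1 was at 5.05, 4.15 and 3.02 CPM in control and 13.2, 37.8 and 32.1 CPM in 4T07 spleens. Its lowest 4T07 value stood above the highest control. Cstdc6 had 2 counts in all controls against 20, a ratio of 9.98 with a counting interval of 2.43 to 88.1. Like Itgb2l, Cstdc6 passed the count filter only through the 4T07 spleens, so the direction of its call was fixed beforehand.

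Of 8 granulocyte transcription factors, 4 rose. Cebpe, needed for secondary granule formation, was at 2.52, 2.31 and 3.23 CPM in control and 53.5, 73 and 86.5 CPM in 4T07 spleens, with no overlap (log2 fold change 4.89 ± 0.39, adjusted p = 6.44e-07). Gfi1, a repressor needed for neutrophil maturation, rose by 2.58, Cebpd by 2.11 and Cebpb by 1.51. Cebpa, which acts at the start of granulocyte commitment, had a log2 fold change of 0.15 ± 0.21, Spi1 0.73 ± 0.20 and Irf8, which favors monocyte over neutrophil fate, -0.78 ± 0.16, and none of these was called.

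Eosinophil and basophil genes rose beside those of neutrophils. Of 8 eosinophil genes, 5 rose and 1 fell. Epx, eosinophil peroxidase, was at 5.05, 4.38 and 3.23 CPM in control and 139.6, 178 and 129 CPM in 4T07 spleens, apart in every library (log2 fold change 5.30 ± 0.36, adjusted p = 1.72e-07). Prg2, major basic protein of the eosinophil granule, rose by 4.81 and Ear1, an eosinophil ribonuclease with near-identical copies, by 4.53. The 3 surface receptors of the list differed. Siglecf, a lectin of mature eosinophils, was at 0.583, 2.08 and 0.647 CPM in control and 4.94, 2.76 and 5.15 CPM in 4T07 spleens and rose (log2 fold change 2.11 ± 0.45). Ccr3, the eotaxin receptor, fell by 2.32-fold, and Il5ra, the interleukin-5 receptor, had a log2 fold change of -0.35 ± 0.25 and was not called. Of 9 basophil and mast cell genes, 5 rose. Prss34, a basophil protease, was at 1.75, 1.62 and 1.08 CPM in control and 56, 55.6 and 70.7 CPM in 4T07 spleens (log2 fold change 5.50 ± 0.40, adjusted p = 2.96e-07). Mcpt8, which in the mouse marks basophils, rose by 4.66 on the log2 scale. The mast cell proteases Cma1 and Mcpt4 had log2 fold changes of -0.24 ± 0.33 and -0.24 ± 0.53 and were not called.

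**Figure D2:**
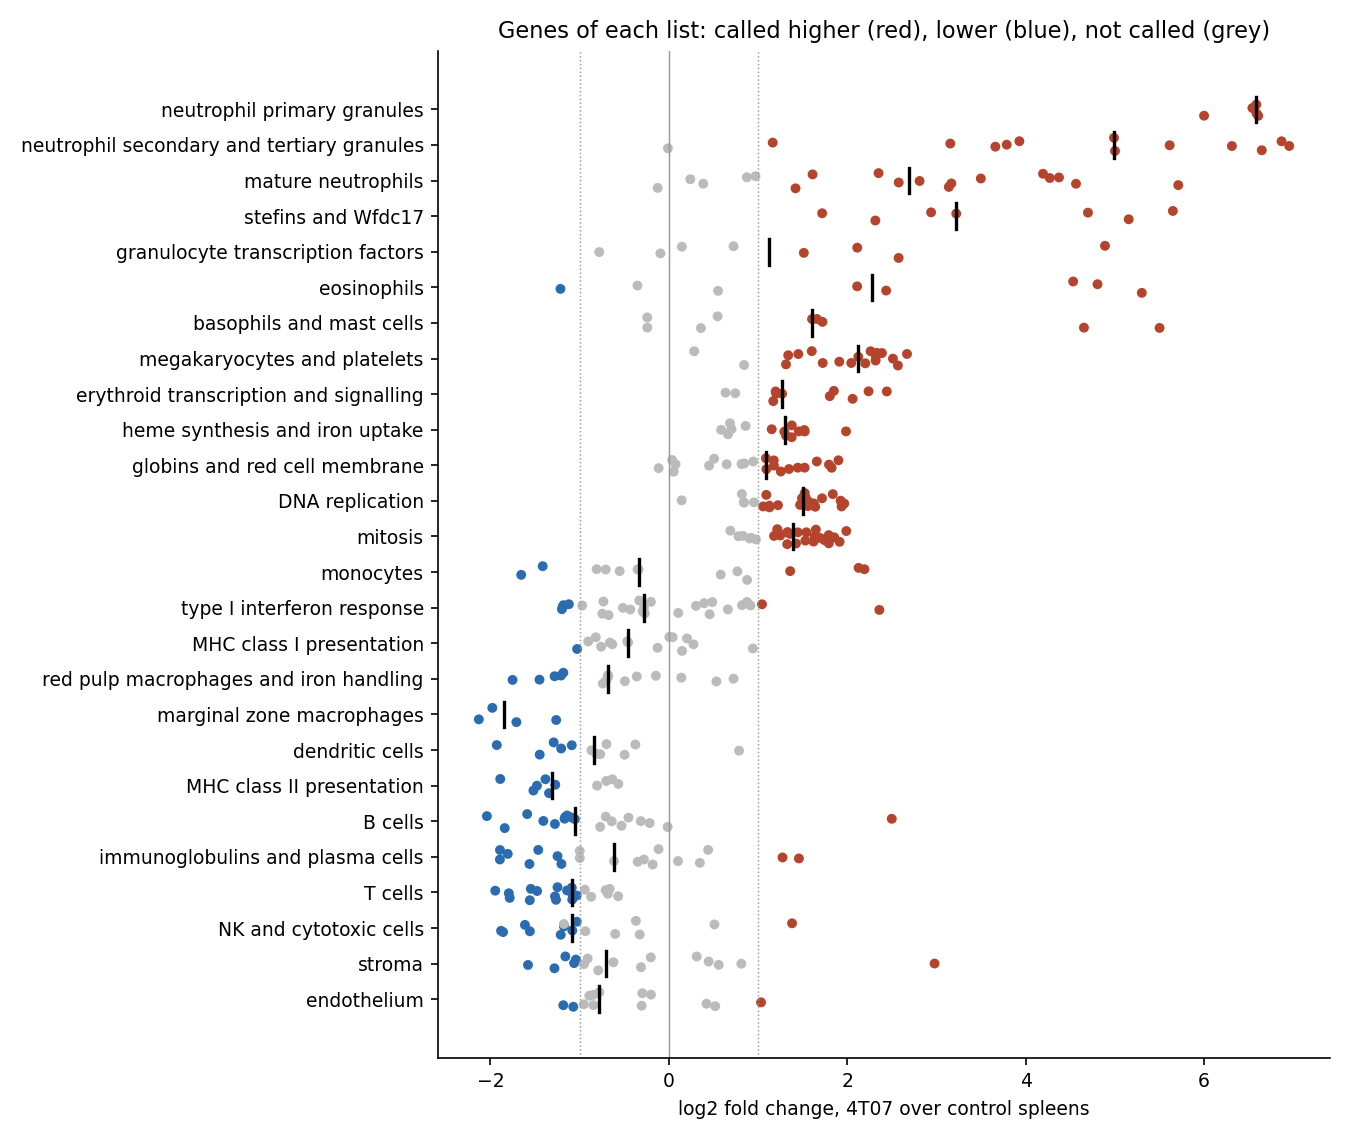
Log2 fold change, 4T07 over control spleens, of every tested gene in 26 lists. Points are genes, called higher (red), lower (blue) or not called (grey), black bars mark medians, and dotted lines mark a 2-fold change. Medians run from 6.59 for primary granules to -1.84 for marginal zone macrophages.

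Erythroid genes rose more moderately. Of 11 genes of erythroid transcription and signalling, 9 rose and none fell, with a median log2 fold change of 1.27. Klf1, the factor that turns on adult beta-globin, was at 95.3, 78.7 and 127 CPM in control and 312, 300.1 and 345 CPM in 4T07 spleens. The groups did not overlap, and the log2 fold change was 1.85 ± 0.20 (adjusted p = 1.14e-05). Gata1, the master regulator of the erythroid lineage, rose by 1.20, Gfi1b, which erythroid and megakaryocytic cells need, by 2.44, and Epor, the erythropoietin receptor, by 1.20 on the log2 scale. Of 14 genes of heme synthesis and iron uptake, 9 rose, with a median of 1.30. They included Cpox (1.46), an enzyme of the porphyrin pathway, and Steap3 (1.99), the ferrireductase of erythroid endosomes. Alas2, the erythroid enzyme of the first step, was at 40.0, 14.8 and 13.4 CPM in control and 46.3, 29.2 and 16.6 CPM in 4T07 spleens and was not called (log2 fold change 0.59 ± 0.41). The letters AGATAA, which GATA factors such as Gata1 recognize, were in 2 of 11 heme synthesis and 4 of 15 globin and membrane promoters, against 10.3% of all promoters. They were also in 5 of 11 promoters of secondary and tertiary granule genes, in 2 of 16 of mature neutrophil genes and in 0 of 5 of primary granule genes.

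Of 22 globin and red cell membrane genes, 12 rose, with a median of 1.09. Slc4a1, the anion exchanger band 3, was at 209.9, 264 and 339.6 CPM in control and 651, 942 and 884 CPM in 4T07 spleens (log2 fold change 1.80 ± 0.25). Rhag, the Rh-associated glycoprotein, rose by 1.90 and the spectrin gene Sptb by 1.66. Hba-a1, an alpha-globin gene, was at 17897, 15401 and 17406 CPM in control and 34795, 42183 and 51203 CPM in 4T07 spleens, higher in each 4T07 library (log2 fold change 1.52 ± 0.25). Hbb-bs, a beta-globin gene, was at 42577, 32638 and 28919 CPM in control and 38483, 44671 and 42881 CPM in 4T07 spleens and was not called (log2 fold change 0.45 ± 0.25). Hba-a1 and Hba-a2 are near-identical, as are Hbb-bs and Hbb-bt, so reads may be split between copies. Over the 4 globin genes, alpha was called and beta was not, and this difference was not tested.

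Megakaryocyte and platelet genes rose almost throughout: 17 of 19 were called higher and none lower, with a median log2 fold change of 2.12 and summed levels of 2853 to 3463 CPM against 743 to 986 CPM. Pf4, platelet factor 4, was at 232, 207 and 163 CPM in control and 986, 862 and 725 CPM in 4T07 spleens. All 3 4T07 libraries stood above the highest control (log2 fold change 2.26 ± 0.26, adjusted p = 1.74e-05). Itga2b, an early megakaryocyte integrin subunit, rose by 2.12, Gp1bb, a subunit of the von Willebrand factor receptor, by 2.67, and Vwf by 1.73 on the log2 scale. Gp9 (0.84 ± 0.25) and Gng11 (0.28 ± 0.20) were not called.

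Genes of dividing cells rose with these lineages. Of 24 DNA replication genes 19 rose (median 1.51), and of 28 mitosis genes 22 rose (median 1.39), with none lower in either list. Mcm7, part of the replicative helicase, was at 67.2, 53.8 and 101 CPM in control and 203, 237 and 302 CPM in 4T07 spleens, without overlap (log2 fold change 1.93 ± 0.24). Aurkb, the kinase of the chromosomal passenger complex, rose by 1.99 and Cdc20, the activator of the anaphase-promoting complex, by 1.92. Mki67, the proliferation antigen, was at 337, 349 and 423 CPM in control and 474, 657 and 603 CPM in 4T07 spleens, a log2 fold change of 0.83 ± 0.18 that passed the p threshold but not the 2-fold limit. Of 12 stem and progenitor genes only Myb, Hoxa9 and Muc13 were called, all higher, beside 9.27% higher over all genes. Myb, which progenitors need to keep dividing, rose by 1.63, Hoxa9 by 1.99 and Muc13, a mucin of hematopoietic progenitors, by 3.13 on the log2 scale. Kit, the stem cell factor receptor, had a log2 fold change of 0.20 ± 0.25 and Flt3, a receptor of lymphoid and dendritic progenitors, -0.08 ± 0.30.

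Resident macrophage genes were lower. All 4 marginal zone macrophage genes fell, with a median of -1.84 and summed levels of 444 to 641 CPM in control and 121 to 138 CPM in 4T07 spleens. Marco, a scavenger receptor, was at 473, 298 and 467 CPM in control and 97.4, 79.2 and 102 CPM in 4T07 spleens, and Cd209b, the lectin SIGN-R1, at 65.1, 59.1 and 93.4 CPM in control and 13.2, 16.4 and 14 CPM in 4T07 spleens. Neither overlapped (log2 fold changes -1.98 ± 0.23 and -2.13 ± 0.27). Siglec1, the sialoadhesin of metallophilic macrophages, fell by 2.4-fold and Nr1h3, the receptor that marginal zone macrophages require, by 3.27-fold. Of 15 red pulp macrophage and iron genes, 5 fell and none rose. Slc40a1, the iron exporter ferroportin, was at 340.4, 311 and 406 CPM in control and 148, 111 and 146 CPM in 4T07 spleens, without overlap (log2 fold change -1.21 ± 0.18). Spic had a log2 fold change of -1.18 ± 0.19, and Timd4, which binds phosphatidylserine on dying cells, -1.75 ± 0.21. The complement genes C1qa, C1qb and C1qc, at -0.36 ± 0.23, 0.14 ± 0.18 and -0.14 ± 0.18, were not called. 

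Of 13 monocyte genes, 3 rose and 2 fell, beside 9.27% higher and 10.6% lower over all genes. F13a1, coagulation factor XIII, was at 26.8, 29.8 and 33.2 CPM in control and 134, 97.3 and 117 CPM in 4T07 spleens (log2 fold change 2.13 ± 0.22), and Fn1, fibronectin, and Vcan, versican, rose by 1.36 and 2.19. Treml4, a marker of nonclassical monocytes and some dendritic cells, and Ms4a4c fell by 3.15-fold and 2.66-fold. Ly6c2 (0.88 ± 0.20) and Ccr2 (0.58 ± 0.21), which mark classical monocytes, and Cx3cr1 (-0.55 ± 0.19), which marks the nonclassical ones, were not called. The median of the monocyte list was -0.34 and changed sign among the processing alternatives.

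T cell genes were lower: 15 of 21 fell and none rose, with a median log2 fold change of -1.09 and summed levels of 1106 to 1418 CPM in control against 487 to 548 CPM in 4T07 spleens. Trbc2, a constant region of the T cell receptor, was at 277, 325 and 218 CPM in control and 104, 105 and 93.1 CPM in 4T07 spleens, without overlap (log2 fold change -1.26 ± 0.19, adjusted p = 2.00e-04). Cd4 fell by 2.2-fold, Cd8b1 by 3.44-fold and the costimulatory receptor Cd28 by 2.92-fold. Ccr7, the homing receptor of naive cells, fell by 2.42-fold. Of 9 regulatory and checkpoint genes tested, 4 fell (Ctla4, Tnfrsf18, Havcr2 and Icos). Foxp3, which defines regulatory T cells, was at 2.14, 1.38 and 1.72 CPM in control and 2.68, 1.73 and 1.43 CPM in 4T07 spleens and was not called (log2 fold change 0.32 ± 0.46).

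Of 15 genes of NK and cytotoxic cells, 8 fell and 1 rose, with a median of -1.08. Klrk1, which encodes the activating receptor NKG2D, fell by 2.94-fold, Tbx21, which encodes T-bet, by 3.62-fold and Gzma, granzyme A, by 2.26-fold. Without 4T07 replicate 30 the number that fell was 5. Nkg7, a protein of cytotoxic granules, went the other way, at 23.1, 27.7 and 23.5 CPM in control and 58.3, 56.4 and 56.7 CPM in 4T07 spleens (log2 fold change 1.38 ± 0.23). Gzmb, granzyme B, had a log2 fold change of 0.51 ± 0.47 and Ifng, interferon gamma, -0.33 ± 0.82, and neither was called.

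Of 19 B cell genes, 10 fell and 1 rose, with a median of -1.05. Cr2, the complement receptor highest on marginal zone and follicular B cells, was at 527, 523 and 819 CPM in control and 139.6, 137 and 125 CPM in 4T07 spleens. The groups stood apart, with the highest 4T07 value below the lowest control (log2 fold change -2.04 ± 0.23, adjusted p = 1.63e-05). Bank1, an adaptor of B cell receptor signalling, fell by 3.58-fold, Cd22, its inhibitory receptor, by 3.01-fold and Ms4a1, which encodes CD20, by 2.42-fold. Cd79a, which encodes a signalling subunit of the receptor, was at 14.8, 12 and 7.55 CPM in control and 15.9, 8.63 and 5.73 CPM in 4T07 spleens and was not called (log2 fold change -0.01 ± 0.35). Vpreb3, expressed in early B cells, went up from 14.6, 13.8 and 16.2 CPM to 76.2, 94.9 and 51.8 CPM (log2 fold change 2.50 ± 0.23, adjusted p = 3.13e-06). Of 6 germinal center genes, Mybl1 (1.10) and S1pr2 (1.09) rose, beside 9.27% higher over all genes. Neither Mybl1 nor S1pr2 was called without TMM factors.

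Of 19 immunoglobulin and plasma cell genes, 7 fell and 2 rose. Constant regions share sequence, so single values are uncertain. Iglc2, a lambda light chain, was at 1162, 1449.7 and 890.0 CPM in control and 341, 302 and 198 CPM in 4T07 spleens, a fall of 3.71-fold, and Iglc1 and Iglc3 fell with it, while the kappa chain Igkc was at 3289.8, 3613 and 2902 CPM in control and 3813, 3889.5 and 4071 CPM in 4T07 spleens and was not called (log2 fold change 0.44 ± 0.22). Among heavy chains Igha fell by 2.76-fold and Ighd, borne by naive B cells, by 2.3-fold, Ighm had a log2 fold change of -0.61 ± 0.21 below the 2-fold limit, and Ighg1 and Ighg2c rose by 1.46 and 1.27 on the log2 scale. Jchain, the joining chain of secreted IgA and IgM, fell by 2.38-fold.

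Genes of class II antigen presentation were lower. Of 10 tested, 6 fell, with a median of -1.31. H2-Ab1, a class II beta chain, was at 1245, 1525 and 1320.4 CPM in control and 481, 469.7 and 437 CPM in 4T07 spleens, without overlap (log2 fold change -1.38 ± 0.18). Ciita, the class II transactivator, fell by 2.54-fold and H2-Ob, a chain of the B cell chaperone H2-O, by 3.71-fold. Of 15 class I genes only Psmb9, an immunoproteasome subunit, was called lower (-1.03), beside 10.6% lower over all genes. Between 0 and 3 class I genes were called lower as single libraries were left out. B2m, the class I light chain, was at 2193, 1955 and 1969 CPM in control and 2015, 1819 and 1758 CPM in 4T07 spleens (log2 fold change 0.04 ± 0.17). Of 12 dendritic cell genes, 5 fell. Siglech, of plasmacytoid cells, was at 51.1, 54.2 and 52.6 CPM in control and 13, 11.2 and 12.6 CPM in 4T07 spleens (log2 fold change -1.93 ± 0.17), and Clec9a, of cross-presenting cells, fell by 2.45-fold.

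Interferon response genes were called in both directions, beside 9.27% higher and 10.6% lower over all genes. Of 26 type I genes 2 rose and 4 fell, and of 13 interferon gamma genes only Gbp5, a guanylate-binding protein, fell (-1.78). Isg15, a ubiquitin-like protein induced by interferon, was at 168, 212 and 92.3 CPM in control and 211, 206 and 104 CPM in 4T07 spleens, and these values overlap (log2 fold change 0.30 ± 0.28). Oas3, a sensor of double-stranded RNA, rose by 2.36 and Oasl1 by 1.04, while Bst2, tetherin, and Zbp1, a nucleic acid sensor, fell by 2.3-fold and 2.18-fold.

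Of 12 colony-stimulating factors and receptors, 5 receptors rose and 1 ligand fell. Csf2rb, the shared chain of the receptors for GM-CSF, interleukin-3 and interleukin-5, rose by 1.51 and Csf2ra, the chain specific to GM-CSF, by 1.40 on the log2 scale, and Csf3r and Epor were also among them. Csf1, the macrophage growth factor, fell by 2.07-fold and was not called without 4T07 replicate 30. Csf2 and Csf3 had 10 counts or fewer and were not tested.

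Of 28 chemokines and receptors tested, 7 rose and 6 fell. Ccl8, a monocyte chemokine, was at 1.17, 2.54 and 2.8 CPM in control and 169, 118 and 81.6 CPM in 4T07 spleens, the largest change of the list (log2 fold change 5.99 ± 0.39, adjusted p = 1.42e-07). Ccl2, which draws monocytes through Ccr2, was at 0.583, 0.692 and 0.431 CPM in control and 12.8, 3.45 and 0.859 CPM in 4T07 spleens, where replicate 30 stood close to the controls (log2 fold change 3.44 ± 0.76). Ccl2 passed the count filter only through the 4T07 spleens, so the direction of its call was all but fixed beforehand. Ccl8 and Ccl2 are abundant in the tumors of the series, with means of 1345 and 77.5 CPM in 4T07 tumors. The part of that in the difference was not tested. Cxcl12, which holds progenitors and B cells in place, fell by 2.99-fold, and its receptor Cxcr4 rose by 1.03. The lymphocyte receptors Cxcr5, Ccr6 and Ccr7 fell by 2.24-fold, 3.7-fold and 2.42-fold. Without 4T07 replicate 28, 4 genes of the list were called higher.

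Of 9 myeloid suppressor effectors tested, 3 rose. Ncf1, a cytosolic subunit of the NADPH oxidase, rose by 1.81, Tgfb1 by 1.05 and Olr1, the oxidized lipoprotein receptor, by 4.65. Arg1, arginase 1, was at 0, 0 and 1.08 CPM in control and 1.44, 0.69 and 0.573 CPM in 4T07 spleens, which overlap (log2 fold change 1.46 ± 1.17). Il10 (-0.82 ± 0.64) and Cd274, which encodes PD-L1 (-0.61 ± 0.29), were not called. Of 21 glycolysis and hypoxia genes, 5 rose: the hexokinases Hk1 and Hk2, the pyruvate kinase Pkm, the lactate exporter Slc16a3 (2.34) and the prolyl hydroxylase Egln3 (2.73). Ldha, lactate dehydrogenase, was not called (0.22 ± 0.20). Of 10 immediate early and heat shock genes, which respond to handling of tissue, Dusp1 alone rose (1.19), and of 15 circadian genes Clock alone fell (-1.04). Over all genes, 9.27% were called higher and 10.6% lower.

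In the lists of structural cells, calls went both ways, beside 9.27% higher and 10.6% lower over all genes. Of 16 stromal genes, 5 fell and 1 rose. Dcn, decorin, fell by 2.23-fold and Tlx1 by 2.09-fold, and Col1a1, a collagen chain, had a log2 fold change of 0.81 ± 0.15 below the 2-fold limit. Pdpn, podoplanin, a glycoprotein of reticular fibroblasts and some tumor cells, was at 5.05, 9.23 and 11 CPM in control and 71.4, 54.7 and 50.1 CPM in 4T07 spleens (log2 fold change 2.98 ± 0.28), and averaged 474 CPM over the 67NR tumors and 98.5 CPM over those of 4T07. Of 13 endothelial genes, Stab2, a scavenger receptor of splenic sinuses, and Egfl7 fell and Stab1 rose. The fall was of 1 to 4 genes as single libraries were left out, and without TMM factors 6 endothelial genes fell and none rose. Genes of exocrine pancreas, an organ that touches the spleen, summed to between 101 and 1368 CPM in control and between 36.6 and 796 CPM in 4T07 spleens, and none of 17 was called, but 10 were called higher without control replicate 8. None of 8 adipocyte genes was called, and 2 of 8 epithelial genes, Epcam and Krt19, fell.

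Some of the largest changes were in genes high in the tumors of the series. The tumors were sequenced whole, so these need not be genes of tumor cells. Genes at 50 CPM or more in 4T07 tumors and at most 0.5 CPM in 67NR spleens and control lungs numbered 3 (Rnase2a, Csn2 and Pitx1). Of these only Rnase2a, an eosinophil-associated ribonuclease with near-identical copies, had enough counts to be tested, and it rose, with 2 counts in all control spleens and 29 in 4T07 spleens (ratio 14.5, 95% counting interval 3.66 to 125). The same rule applied to 67NR tumors, after these values had been seen, gave 6 genes, and all 6 were called higher in 4T07 spleens. They were Rhox5, a homeobox gene of the reproductive tract, Csn3, kappa-casein, Etv4, an ETS factor, Cldn9, a claudin, Pnma5 and the noncoding RNA Lncenc1. Each had at most 3 counts over the control spleens. Like Rnase2a, they passed the count filter only through the 4T07 spleens, so the direction of their calls was fixed beforehand. The rule set no limit in the other tumors or in scaffolds. Etv4 averaged 51.2 CPM in 67NR, 37.3 CPM in 4T1 and 20.3 CPM in 4T07 tumors, against 5.07 CPM in 4T07 spleens. The mean of Csn3 was 116 CPM for 67NR tumors, 35.0 CPM for 4T07 tumors and 13.0 CPM for 4T07 spleens. In scaffolds of the controls, which had no tumor, Csn3 was at 1.26 to 8.03 CPM. Rhox5 had no count in any control spleen and was at 77.6, 87.8 and 27.8 CPM in 4T07 spleens, lowest in replicate 30. Its 4T07 level was at least 100.6-fold higher than the floor of 3 counts per library. For Pnma5 and Cldn9, also without a count in controls, the same floor gives at least 34.4-fold higher for the former and at least 17.9-fold higher for the latter. Lncenc1 had 2 counts in controls against 352, a ratio of 176 with a counting interval of 48.3 to 1457. For Csn3 the ratio was 194 (34.4 to 7690) and for Etv4 23.3 (7.65 to 116). These intervals cover counting error only.

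The summed level of the 6 genes was 199, 150.5 and 71.0 CPM in the 4T07 spleens, which is 11.8%, 8.94% and 4.22% of the mean in 67NR tumors. It was 0.216 to 0.692 CPM in control spleens, 0 to 0.897 CPM in spleens of mice with 67NR tumors and 0.719 to 6.40 CPM in 4T1 spleens. The low level in 67NR spleens was a condition of the rule. In 4T07 tumors the sum was 66.6 to 78.7 CPM, so that 2 of 3 4T07 spleens stood above every 4T07 tumor. In 4T07 lungs it was 20.2 to 76.0 CPM, and in 67NR tumors 1633 to 1713 CPM. Mpo was at 0 to 0.806 CPM in 67NR tumors and 16.1 to 123 CPM in 4T07 tumors, and the part of tumor RNA in its spleen difference was not tested. Of 7 genes high in 4T1 tumors by the same rule, none had enough counts in these spleens to be tested. How RNA of these genes came to be in the 4T07 spleen libraries was not tested.

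**Figure D3:**
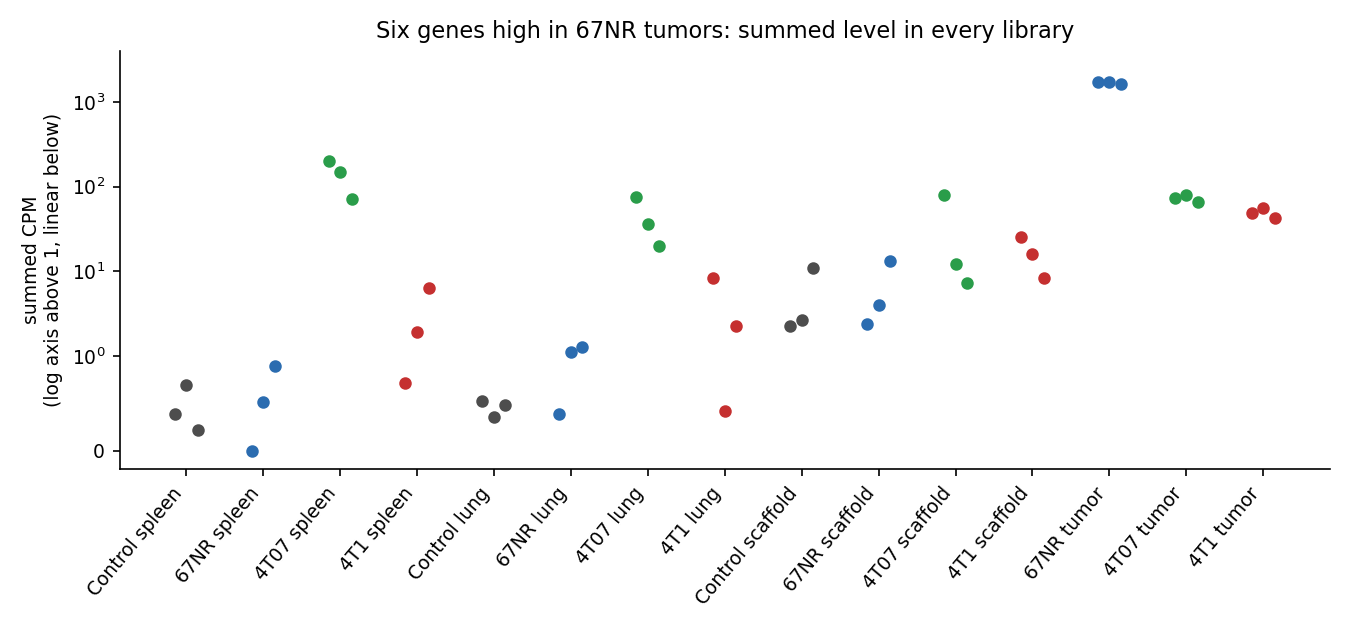
Summed CPM of 6 genes high in 67NR tumors (Rhox5, Lncenc1, Pnma5, Csn3, Cldn9 and Etv4) in all 45 libraries, by group (log axis above 1, linear below). The 3 4T07 spleens, at 71.0 to 199 CPM, lie above all other spleens, and 67NR tumors lie at 1633 to 1713 CPM.

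Beyond the genes above, the 15 highest fold changes among called genes without overlap between groups and of at least 5 CPM on average included Prss57, a serine protease of neutrophil granules, at 0.971, 0.461 and 0.647 CPM in control and 46.9, 46.9 and 58.7 CPM in 4T07 spleens (log2 fold change 6.29 ± 0.45), and Chil1, a chitinase-like protein, at 2.14, 2.77 and 2.8 CPM in control and 108, 120.5 and 210.5 CPM in 4T07 spleens (6.01 ± 0.39). Prss57 passed the count filter only through the 4T07 spleens, so the direction of its call was all but fixed beforehand. The 15 lowest included several noncoding or unnamed gene models (Gm2682, Gm34908, Gm4610, Gm44078, Gm23037, 2900052N01Rik, Snord89) and the mitochondrial tRNA mt-Tq. Among the protein-coding genes, Art2a, an ADP-ribosyltransferase of T cells, went from 115, 87.2 and 34.1 CPM to 14.4, 9.66 and 8.59 CPM. Itga8, an integrin subunit of contractile stroma, went from 16.1, 6.69 and 7.12 to 1.65, 1.55 and 0.859 CPM, and Trat1, an adaptor of the T cell receptor, from 14.4, 16.6 and 12.3 to 3.71, 2.42 and 0.859 CPM. Their log2 fold changes were -2.68 ± 0.39, -2.66 ± 0.43 and -2.39 ± 0.36. Klk1, a tissue kallikrein, Upk3b, a uroplakin of mesothelium, Gimap8, a GTPase of lymphocytes, and Ubd, a ubiquitin-like modifier of lymphoid tissue, fell by 5.42-fold, 5.41-fold, 5.58-fold and 5.28-fold. Among the 20 genes of highest level, Malat1, a nuclear noncoding RNA, fell by 2.23-fold, from 5438, 6528 and 5021 CPM to 2938, 2117 and 1744 CPM.

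Against the spleens of 67NR mice, which bore tumors of the line described as nonmetastatic, 1353 genes (7.24%) were higher and 1456 (7.79%) lower in 4T07 spleens. All 5 primary granule genes, 12 of 13 secondary and tertiary granule genes and 18 of 19 megakaryocyte genes were higher. Mpo, at a mean of 16.5 ± 2.81 CPM (SD, n = 3) in 67NR spleens, differed by 6.15 ± 0.38 (adjusted p = 2.07e-07). Of 21 T cell genes 7 and of 19 B cell genes 6 were lower than in 67NR spleens, with 2 B cell genes higher, and all 4 marginal zone genes were lower. In the erythroid and dividing-cell lists, 1 of 11 erythroid factors, 1 of 14 heme genes, 2 of 24 replication genes and 3 of 28 mitosis genes were called. All were higher, beside 7.24% called higher over all genes. The median log2 fold changes of these lists were 0.38, 0.33, 0.52 and 0.62, against -0.02 over all genes. Klf1, at 249 ± 50.5 CPM in 67NR spleens and 319 ± 23.1 CPM in 4T07 spleens, had a log2 fold change between them of 0.62 ± 0.19 and was not called. Among genes chosen for size, Ryr3, a calcium release channel, went from 11 to 1.44 CPM and Gimap8 from 92.2 to 13.5 CPM on average, alongside the gene models Gm43916, Gm5511 and Gm48670.

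Against 4T1 spleens, 332 genes (1.78%) were higher and 163 (0.872%) lower, and these counts depended on single libraries. They summed to 495 with all libraries, to 901 without 4T07 replicate 28, to 253 without replicate 29 and to 320 without replicate 30, and to 252 and 249 without 4T1 replicates 40 and 42. No primary or secondary and tertiary granule gene was called. Mpo was at 747 ± 326 CPM (SD, n = 3) in 4T1 spleens against 968 ± 141 CPM in 4T07 spleens (log2 fold change 0.29 ± 0.30). Genes of mature neutrophils were lower in 4T07 spleens, 7 of 18, as were 6 of 7 genes of the stefin list, which includes Wfdc17, a gene of the whey acidic protein family. Csf3r differed by -1.80 ± 0.17 (adjusted p = 4.22e-05) and Wfdc17 by -2.87 ± 0.27. Saa3, an acute phase protein made by myeloid and stromal cells, was at 4.01 to 6.04 CPM in 4T07, 17.1 to 38.6 CPM in 4T1 and 1.36 to 7.76 CPM in control spleens. Megakaryocyte genes (6 of 19) and basophil genes (4 of 9) were higher than in 4T1 spleens, with none lower. Mcpt8 differed by 2.00 ± 0.32, Epx by 1.54 ± 0.29 and Vpreb3 by 1.91 ± 0.23. Among the genes with the largest differences were 4 of the 6 genes high in 67NR tumors, Lncenc1, Rhox5, Csn3 and Cldn9, and the monocyte chemokine Ccl12, all higher in 4T07 spleens. The 3 comparisons share the 4T07 spleens, so their values are set side by side without a test across them.

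**Figure D4:**
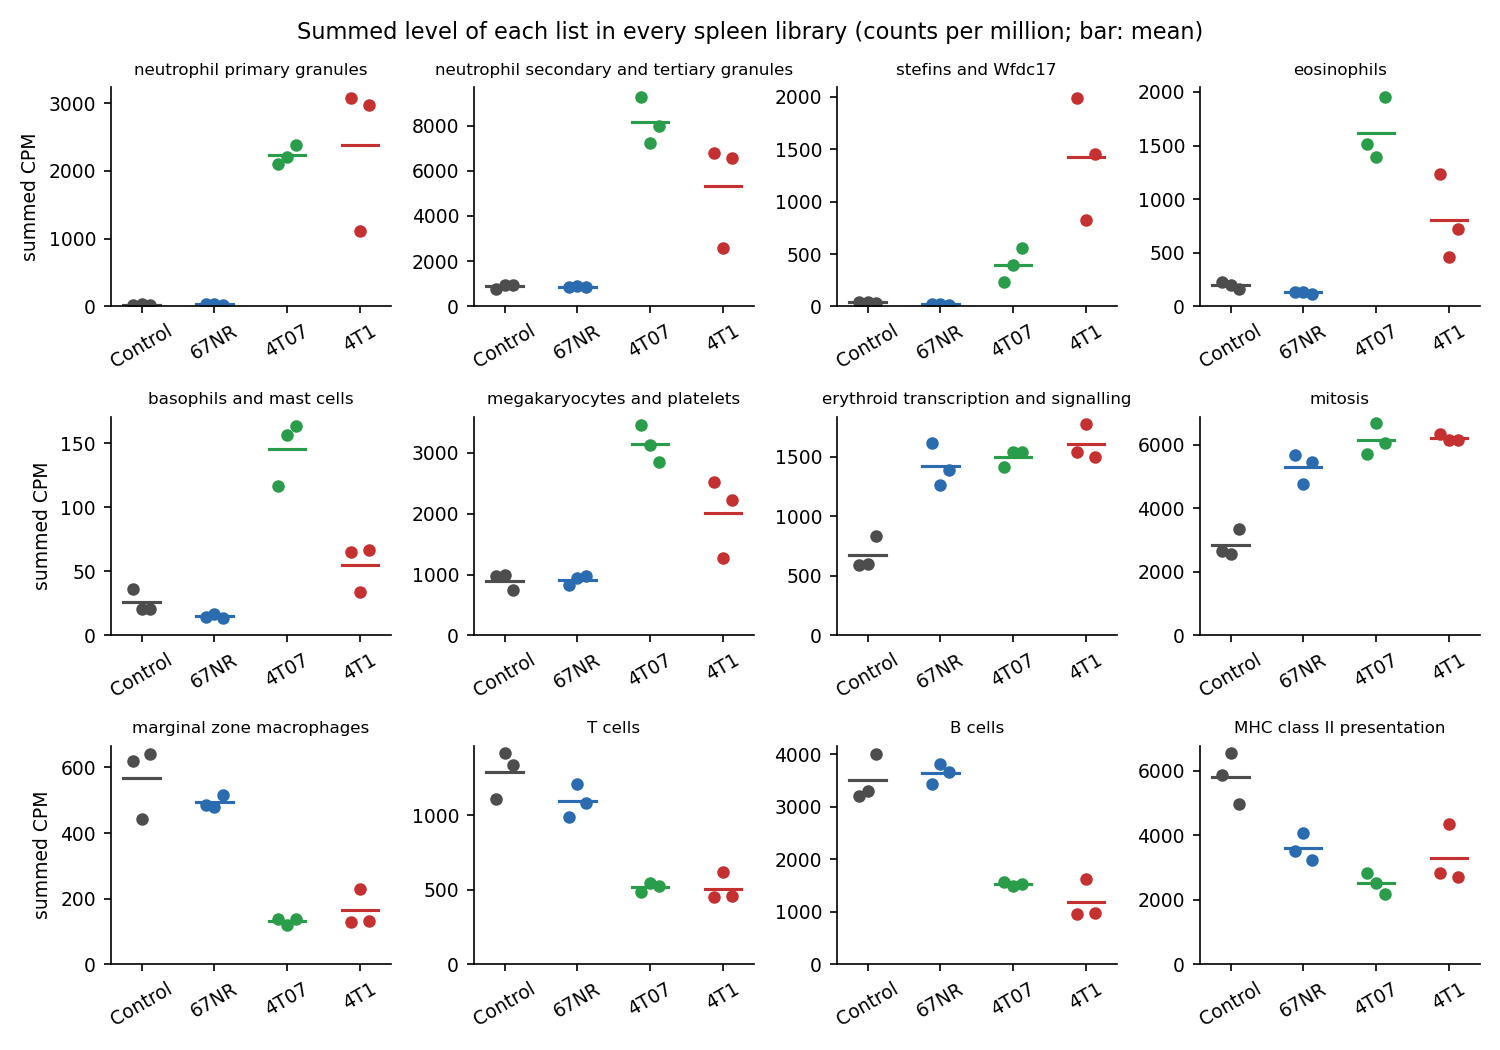
Summed CPM of 12 gene lists in every spleen library of the Control, 67NR, 4T07 and 4T1 groups, 3 libraries each, with a bar at the mean and axes from 0. Primary granule genes reach 2103 to 2388 CPM in 4T07 spleens against 17.9 to 39.2 CPM in control spleens. Erythroid genes sum to 1262 to 1617 CPM in 67NR and 1414 to 1540 CPM in 4T07 spleens, which overlap. Mitosis genes sum to 4773 to 5669 CPM in 67NR and 5695 to 6679 CPM in 4T07 spleens, without overlap.

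The same contrast, 4T07 against control, was set beside the lungs and the scaffolds by an interaction term. The change in spleen exceeded that in lung in 1909 genes (10.2%) and was below it in 2475 (13.2%). For scaffold the numbers were 1370 (7.33%) and 1666 (8.91%). In the libraries labelled 4T07 lung, Spic was at 23.6 to 34.9 CPM against 1.78 to 4.18 CPM in control lungs, and Pnlip, pancreatic lipase, at 67.7 to 90.8 against 0 to 0.324 CPM. Scgb1a1, the secretory protein of airway club cells, was at 2698 to 8344 CPM in 4T07 and 11150.2 to 15706 CPM in control lungs. The 4T07 spleens in turn held Scgb1a1 at 47.4, 51.4 and 20.0 CPM against 0.971, 0.461 and 1.08 CPM in control spleens. The part of these genes of other organs in the differences was not tested.

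All 5 primary granule genes were also higher in the libraries labelled 4T07 lung than in control lungs, and for 4 of 5 the change exceeded that in spleen. Mpo was at 668 to 901 CPM in those libraries and 0.162 to 0.872 CPM in control lungs. Its spleen change minus its lung change was -3.80 ± 1.05 (SE, adjusted p = 0.012 by edgeR's quasi-likelihood test) on the log2 scale. In control lungs 3 counts equal 0.486 to 0.541 CPM, and the Mpo values there lie around that level. Elane averaged 0.118 and Ctsg 0.234 CPM in control lungs. The size of the lung change of Mpo, Elane and Ctsg is therefore uncertain, and so is its difference from the spleen change. In the 4T07 libraries Elane averaged 216 CPM in lung and 464 CPM in spleen, and Ctsg 269 and 266 CPM. Of the secondary and tertiary granule genes 3 changed more in spleen and 3 less than in lung. Chil1 went opposite ways, with log2 fold changes of 6.01 in spleen and -1.44 in lung. Against scaffolds, none of the primary and 6 of the 13 secondary and tertiary granule genes differed, all 6 rising more in spleen.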

How the data were processed

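RNA from whole spleens, lungs, scaffolds and tumors was made into 3′ tag libraries (QuantSeq) and sequenced on a NovaSeq. The authors deposited raw counts, whole and not normalized. The submitters' processing notes name Trim Galore 0.5.0, STAR 2.6.0 and featureCounts. The genome build, the annotation, the strand setting and whether reads with the same molecular identifier were collapsed are not given in the sources used here, so counts may include copies of a molecule, and reads of overlapping, antisense or near-identical genes may be mixed. The authors ran DESeq2 on each tissue.

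Groups were taken from the labels. Lines that repeat a symbol were added up, and the genes whose sum over the 6 compared libraries exceeded 10 counts were tested with edgeR 4.0.16 in R 4.3.3, with TMM factors, all 12 spleens in a single fit and the quasi-likelihood F test. Interactions with lung and scaffold were fitted over the 4T07 and control libraries of the 3 tissues together. P-values were adjusted by Benjamini-Hochberg over all genes of a comparison, and genes past an adjusted p of 0.10 and a fold of 2 were called, which are the thresholds of the study. The standard error is the absolute log2 fold change over the square root of F. Counting intervals are exact, at 95%, and 3 counts were used as a library's floor. Coordinates and promoters are those of RefSeq on GRCm38.p6, matched by symbol.

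Genes named are members of the lists, the 15 largest fold changes in each direction among called genes without overlap and with at least 5 CPM on average, the 5 largest in each direction against 67NR and against 4T1 spleens, the 20 genes of highest level, and the tumor genes. A few members are counted in their lists and are not reported here by name. The comparison, its gene lists and the rule were chosen with earlier results of these data known. The lists of 67NR and 4T1 tumor genes, and the genes shown in other tissues and in promoters, were added after values had been seen. Results were recomputed with DESeq2 1.42.0 (Wald test), with its size factors in edgeR, with library totals, with TMM without hemoglobin, immunoglobulin and mitochondrial genes, with other count filters, with only the compared libraries, and with each library left out in turn. On simulated counts for this comparison, over 18697 genes, edgeR called 94% of 50 genes changed 3-fold and all of 50 changed 4-fold and 50 changed 8-fold, and 12 unchanged genes (6.7% of calls). The changed genes were drawn above a minimum level, and all genes had the same relative spread. Far fewer genes were changed than were called in the data. Recovery of low or more variable genes was therefore not measured, and that of genes changed 2-fold is not reported here. No pair of libraries was identical, and counts of all replicate pairs differed by more than sampling noise.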

Additional observations from a re-analysis of the deposited data

Results flagged for a closer look

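The change from control to 4T07 differed between spleen and lung in 4384 genes and between spleen and scaffold in 3036 genes, by the interaction term of edgeR's quasi-likelihood test. Among the genes named by the rule and reported here, 40 were called in both spleen and lung with opposite signs, and the number after each is the log2 fold change in spleen minus that in lung. Over all 18697 genes, 19.9% were called in spleen and 29.8% in lung. How many of all genes had opposite signs was not counted, so whether 40 is many cannot be told. The libraries labelled 4T07 lung held Tlx1 at 11.1 to 14.6 CPM, against 11.9 to 16.7 CPM in 4T07 spleens and 0.324 to 0.541 CPM in control lungs, and the part of this in the differences below was not tested.

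Genes lower in 4T07 spleens and higher in the libraries labelled 4T07 lung included markers of B cells and antibody, Blk (-4.14), Cd72 (-2.49), Cxcr5 (-2.49), Fcmr (-2.59), Ms4a1 (-2.75), H2-Ob (-3.23), H2-DMb2 (-2.60), Ighd (-2.25), Iglc1 (-4.69), Iglc2 (-4.76), Iglc3 (-4.12), Jchain (-4.30) and Tnfrsf17 (-3.54). Markers of macrophages and iron export in this class were Marco (-5.23), Cd209b (-4.13), Siglec1 (-2.53), Spic (-4.55), Slc40a1 (-4.24), Slc11a1 (-3.29), Timd4 (-4.58), Treml4 (-3.08) and Ccl24 (-2.25). T cell genes were Art2a (-4.27), Cd4 (-3.81), Cd5 (-2.27) and Cd8a (-2.36). The others were Tlx1 (-5.76), Stab2 (-4.35), the eotaxin receptor Ccr3 (-5.38), Ubd (-4.73), Klk1 (-4.30) and Zbp1 (-2.56), and the gene models 2900052N01Rik (-5.83), Gm34908 (-4.19) and Gm44078 (-6.74).

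Genes higher in 4T07 spleens and lower in those lung libraries were Chil1 (7.44), Pdpn (4.67), S1pr2 (3.01), Fn1 (2.77) and Dusp1 (2.35).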

How the results depend on the processing

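No called gene named in the report changed sign under the alternatives run for 4T07 against control spleens. Requiring at least 10 counts in each of 6 libraries, which leaves out genes absent from a group, gave 1770 called genes (916 higher, 854 lower) in place of 3717. It gave 1273 (687 and 586) against 67NR spleens and 286 (196 and 90) against 4T1 spleens, and left 2 of the 5 primary granule genes and none of the 67NR tumor genes to test. The DESeq2 Wald test called 3229 genes (49.4% higher) and library totals without TMM factors 3958 (32.6% higher, against 46.6%). With only the compared libraries in the fit, 84 genes were lower than in 4T1 spleens. Leaving out single libraries gave 3080 to 3728 called genes against control spleens (1514 to 1838 higher, 1566 to 1967 lower), 2223 to 3029 against 67NR spleens (1107 to 1585 and 1109 to 1545), 249 to 901 against 4T1 spleens (170 to 443 and 58 to 458), 3874 to 4740 for spleen minus lung (1507 to 2176 and 2180 to 2618) and 2477 to 3500 for spleen minus scaffold (1073 to 1673 and 1339 to 1846). The cause of these movements was not tested.

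The 5 primary granule genes were called higher whichever single library was left out. So were the 6 genes high in 67NR tumors. These 6 passed the count filter only through the 4T07 spleens, so the direction of their calls was fixed beforehand. Medians of the monocyte, chemokine, stem cell, suppressor effector, epithelial, adipocyte and exocrine pancreas lists changed sign under some alternative. Of the values of single genes under the alternatives, 7687 stayed called or stayed uncalled, 125 (54 genes) lost their call and 119 (65 genes) gained one. Genes named in the report that lost their call on the omission of a library, with their log2 fold changes then, were as follows. Without 4T07 replicate 28 they were Epor (0.76), Icos (-0.93), Ctla4 (-1.20), Cxcr4 (0.86), S1pr2 (0.90), Cstdc6 (3.34) and Stab1 (0.55). Without 4T07 replicate 29 they were Tlx1 (-0.94), Tgfb1 (0.96), Cxcr4 (0.89), Ctla4 (-2.19), Cstdc6 (2.82) and Stab1 (1.12). Without 4T07 replicate 30 they were Cd4 (-0.97), Csf1 (-0.98), Cxcr5 (-0.88), Cybb (0.99), Gzma (-0.97), Oasl1 (0.85), Psmb9 (-0.89), Tgfb1 (0.94) and Zbp1 (-0.98). Without control replicate 7 they were Clock (-0.97), Mybl1 (0.97), Cxcr5 (-0.83), Psmb9 (-0.78), Tgfb1 (0.97), Ctla4 (-1.65), Cstdc6 (3.51) and Stab1 (0.98). Without control replicate 8 they were Bst2 (-0.87), Egfl7 (-0.94), Zbp1 (-0.89), Psmb9 (-0.97), S1pr2 (0.91), Cstdc6 (3.59) and Stab1 (1.14). Without control replicate 9 they were Krt19 (-1.36), Tlx1 (-0.99), Egfl7 (below 2-fold), Cxcr4 (0.88), Oasl1 (0.95), S1pr2 (0.86), Cstdc6 (2.72) and Stab1 (0.97).

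No paired analysis was possible because the labels give no replicate numbers shared between groups. Precision is limited by 3 libraries in each group and by totals from 3491888 counts, at which genes under 3 counts per library cannot be compared.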
